A study of Mus musculus with 17 samples.

Results

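The MHC class I antigen presentation genes were taken here as 10 listed genes of the 55413 annotated mouse genes, and accessible chromatin around them was read from the ATAC-seq summits of 17 mouse kidneys. ATAC-seq inserts adapters into open chromatin, and a summit is the base at which a peak called in one library was highest. The 7 members on chromosome 17 were H2-K1, H2-D1, Tap1, Tap2, Tapbp, Psmb8 and Psmb9, and the 3 members elsewhere were B2m on chromosome 2 and Psmb10 and Nlrc5 on chromosome 8. The control group (Ctrl, n = 5) was C57BL/6, wild type at the leptin receptor gene. The diabetic group (Case, n = 6) was BKS.Cg-Dock7m +/+ Leprdb/J, called db/db, and the treated group (Dapa, n = 6) was of the same db/db strain with 1 mg/kg/day oral dapagliflozin, an inhibitor of the sodium-glucose cotransporter SGLT2. All mice were male and 8 weeks old at the start of the 6 weeks of dosing, and Ctrl and Case mice received saline. Each library was made from 20000 cells of whole kidney, so the share of a cell type and the openness of its chromatin cannot be told apart.

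Every nucleated cell shows peptides from its own proteins on MHC class I molecules, where cytotoxic T cells read them. The proteasome cuts the proteins, and interferon replaces 3 of its catalytic subunits with the immunoproteasome subunits encoded by Psmb8, Psmb9 and Psmb10. The transporter made of TAP1 and TAP2 moves peptides into the endoplasmic reticulum, tapasin (Tapbp) holds the empty class I molecule beside it, and the heavy chains H2-K1 and H2-D1 pair with the light chain B2m. NLRC5 is the transactivator that acts on class I promoters through the factors bound at their X and Y boxes, and NF-kB and interferon-responsive factors also act there. In the kidney, tubular epithelium carries class I at a low level that inflammation raises.

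The strains bear on 7 of the members. BKS mice carry the H2d haplotype of the MHC and C57BL/6 mice the H2b haplotype, and all reads were aligned to mm10, which is built from C57BL/6. In every comparison with Ctrl, the strain, how well its reads align to mm10 on chromosome 17, the db/db genotype and diabetes cannot be told apart. Class I heavy chain genes also have near-identical relatives nearby, so a summit at H2-K1 or H2-D1 may hold reads of another class I gene. Only Dapa versus Case compares mice of one strain, and the chromosome 17 members are therefore kept apart from the others throughout.

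The promoters of the peptide-presenting chains are shown first, because nearly every library had a summit inside them. RefSeq promoter sequences (GRCm38.p6, the assembly of mm10) were found for 8 of the 10 members, all but Tap2 and Nlrc5. In every sequence printed, capitals mark matches to the 5 motifs searched on both strands. The 250 bases before the H2-K1 start (chr17:34000348-34000597, minus strand, with no annotated gene over them) held an NF-kB site, an X2 box and a Y box.
H2-K1: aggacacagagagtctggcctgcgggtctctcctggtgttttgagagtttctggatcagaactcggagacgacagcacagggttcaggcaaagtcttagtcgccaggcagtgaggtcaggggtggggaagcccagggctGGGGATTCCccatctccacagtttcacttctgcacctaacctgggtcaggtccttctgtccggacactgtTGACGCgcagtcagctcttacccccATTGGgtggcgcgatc
The same boxes lie before H2-D1, where an annotated transcript extends over them, so only short stretches are set side by side: the NF-kB site of H2-K1 (chr17:34000439-34000468) and H2-D1 (chr17:35262913-35262942, plus strand), then the stretch from X2 to Y box of H2-K1 (chr17:34000359-34000388) and H2-D1 (chr17:35262993-35263022).
H2-K1 NF-kB: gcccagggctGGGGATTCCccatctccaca
H2-D1 NF-kB: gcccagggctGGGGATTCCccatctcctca
H2-K1 X2 to Y: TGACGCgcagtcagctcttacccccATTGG
H2-D1 X2 to Y: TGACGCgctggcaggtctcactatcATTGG
The first pair had 29 identical bases of 30 and the second 23 of 30. Over the part in which both 250-base sequences aligned, 166 of 190 bases were identical (87.4%). The 249 bases before B2m (chr2:122147437-122147685, plus strand) held an interferon-stimulated response element 139 bases and a Y box 53 bases upstream of the start.
B2m: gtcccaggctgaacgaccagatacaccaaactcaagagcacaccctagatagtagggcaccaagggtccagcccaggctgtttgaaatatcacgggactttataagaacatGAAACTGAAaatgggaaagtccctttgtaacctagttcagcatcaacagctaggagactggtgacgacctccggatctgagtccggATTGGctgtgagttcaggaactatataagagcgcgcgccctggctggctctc
Tap1 and Psmb9 are transcribed in opposite directions from starts with 225 bases between them, and a stretch around the GC box of that interval (chr17:34187368-34187397) is given because the summits of all 17 libraries lay in or beside the interval.
Tap1 and Psmb9: cagactgaggccCCGCCCcatcatcgcgca

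The motifs were short runs of letters. Over the 300 bases from 250 before to 50 after the start, the NF-kB site GGGNNTTCC was found in 5.82% of 32851 RefSeq promoters and in H2-K1 and H2-D1 among the members. The X2 box TGACGC was found in 7.4% of promoters and in the same 2 members. The interferon-stimulated response element GAAANNGAA was found in 8.56% and in B2m. The Y box ATTGG was found in 37.4% and in 6 members (B2m, H2-D1, H2-K1, Psmb9, Tap1 and Tapbp), and the GC box GGGCGG in 35.7% and in 3 (Psmb9, Tap1 and Tapbp). A match is a run of letters, and Tap1 and Psmb9 share theirs because their promoter windows overlap.

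The libraries held up to 56659 summits, and each list was cut to its highest-scoring summits at the length of the shortest list, that of Case 4. Within such an equal-length list each summit was given a rank percentile, 100 for the highest score, and a gene took the percentile of its best summit between 10 kb upstream and the gene end, or 0 where it had none. Read depth is unknown, and the percentile compares positions within a list, not signal. Of 15 genes marking kidney epithelium and podocytes 8 to 14 had a summit in their window per library, and of 15 leukocyte genes 5 to 9 had one, with counts of 5 to 6 in Ctrl, 6 to 8 in Case and 6 to 9 in Dapa. The part of leukocytes in the values below was not tested.

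In most kidneys each member had a summit in its window, which can also hold starts of neighbouring genes. In the equal-length lists 7 of the 10 (H2-K1, H2-D1, Tap1, Psmb9, Tapbp, B2m and Psmb10) had a summit in their window in all 17 libraries, as did 41.4% of 21938 protein-coding genes and 46.6% of the 1056 on chromosome 17. Nlrc5 had one in 16 libraries, and Tap2 and Psmb8 in 12 each. Within 1 kb of their own starts, Nlrc5 had a summit in 14 libraries, Tap2 in 6 and Psmb8 in 10. Averaged over the 17 libraries, the highest mean percentiles were those of H2-D1, 95.9 ± 4.56 (SD), and Tapbp, 94.4 ± 2.89. Tap1, Psmb10, H2-K1 and B2m followed with means of 81.1, 77.8, 77.4 and 75.3 and SDs of 12.0 to 18.2, so the order among these genes lies within the spread between mice. Nlrc5 averaged 42.1 ± 22.9, Psmb8 33.2 ± 26.7 and Tap2 31.2 ± 24.5. For comparison, genes with a summit in every library had a median mean percentile of 82.1.

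**Figure D1:**
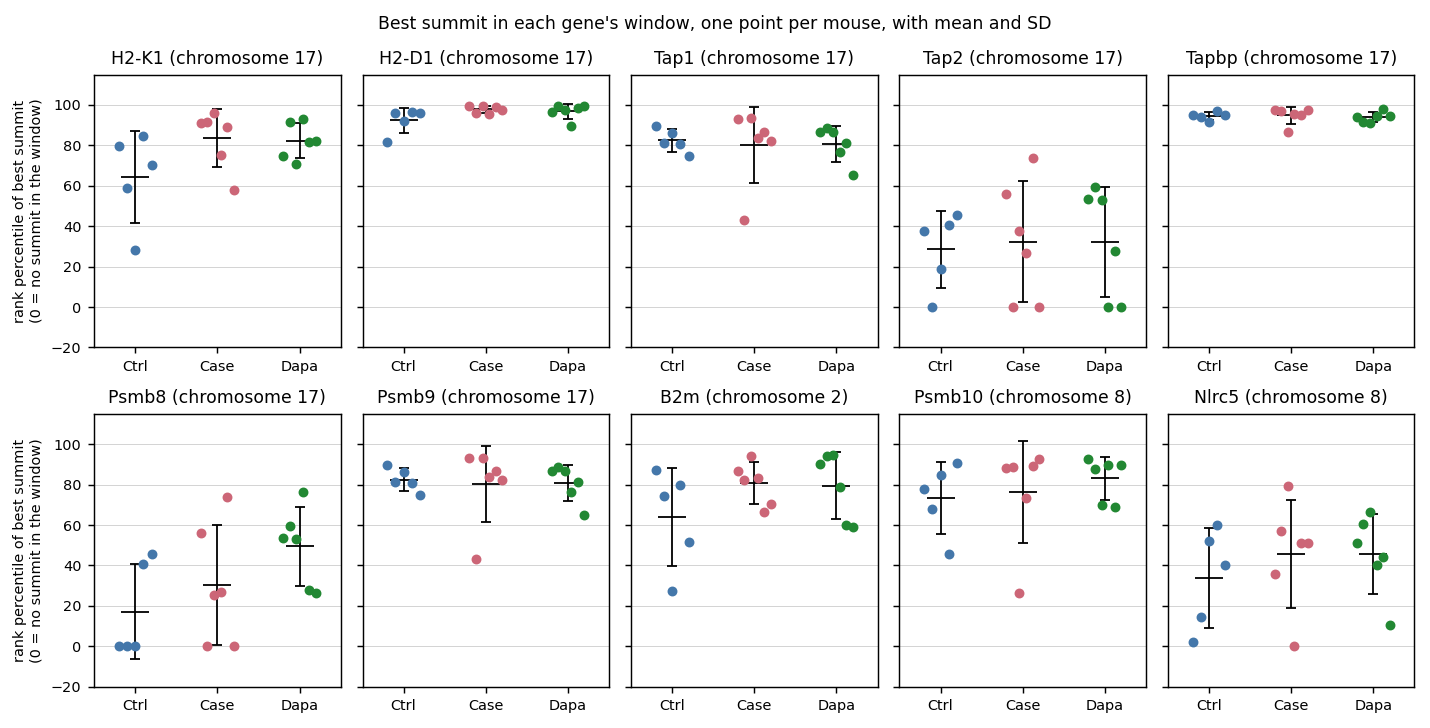
Rank percentile (vertical axis, 0 to 100) of the best summit in each member's window in the equal-length lists, one point per mouse for Ctrl (n = 5), Case (n = 6) and Dapa (n = 6), with the mean (dash) and SD (bar). The 3 groups overlap for each of the 10 genes, and H2-D1 and Tapbp stay above 81 in every mouse while Tap2, Psmb8 and Nlrc5 reach down to 0.

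Among the heavy chains, H2-K1 (ENSMUSG00000061232.16, chr17:33996017-34000347, minus strand) had a summit in every library, at percentiles that overlapped between the groups. The 5 Ctrl mice had 79.7, 58.8, 28.0, 84.8 and 70.4. The Case mice ranged from 57.9 to 96.1 with a median of 90.0, and the Dapa mice from 70.7 to 93.1 with a median of 81.9. The lowest value belonged to Ctrl 3, and 6 of the 12 db/db mice lay above all Ctrl mice. Ctrl averaged 64.3 ± 22.6 (SD), Case 83.4 ± 14.4 and Dapa 82.4 ± 8.88. Case minus Ctrl was 19.1 points (exact permutation p = 0.119, adjusted p = 0.54) and Dapa minus Ctrl 18.0 points (exact permutation p = 0.0801, adjusted p = 0.447). The db/db mice together differed from Ctrl by 18.6 points, which an exact 2-sided permutation test gave p = 0.0293 before and 0.331 after Benjamini-Hochberg adjustment over all 28501 genes tested. Without Ctrl 3 the difference was 9.49 points. In the complete lists it was also 9.49 points (exact permutation p = 0.118), with lists cut to the top 50% it was 28.3 (exact permutation p = 0.0441), and without Case 3 and Dapa 8 it was 16.4 points (exact permutation p = 0.0656). Dapa and Case differed by -1.09 points (exact permutation, adjusted p = 1).

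The H2-K1 summits fell at a few positions. At the start itself, between 34000304 and 34000751, all 12 db/db mice and 4 of the 5 Ctrl mice had a summit, with a median position 46 bases before the start, next to the X2 and Y boxes printed above. Ctrl 2 was the library without one, and its best summit lay in an exon of a non-coding transcript inside the gene. That internal site (33999614 to 33999754) was found in 2 Ctrl, 3 Case and 3 Dapa mice, or in 4, 3 and 3 when the complete lists were read. A site in an intron near 33999019 was present in 1, 2 and 1 mice.

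H2-D1 (ENSMUSG00000073411.11, chr17:35262730-35267499, plus strand) had a promoter summit in every library, and its percentiles ran from 81.6 to 99.5. The Ctrl mice had 81.6, 96.0, 92.2, 96.5 and 95.8, the Case mice 95.5 to 99.5 with a median of 98.3, and the Dapa mice 89.4 to 99.5 with a median of 98.1. The lowest values were those of Ctrl 1 and Dapa 10, and 8 of 12 db/db mice lay above every Ctrl mouse. Case minus Ctrl was 5.38 points (97.8 ± 1.79 versus 92.4 ± 6.26, exact permutation p = 0.0216, adjusted p = 0.306), and all db/db mice minus Ctrl 4.9 points (p = 0.0296, adjusted p = 0.333). Neither passed the adjusted threshold of 0.05, and without Ctrl 1 these differences were 2.69 and 2.2 points. In the complete lists they were 3.11 and 2.82 points (exact permutation p = 0.104 and 0.0926), with lists cut to the top 50% they were 10.8 and 9.8 (exact permutation p = 0.0216 and 0.0296), and without Case 3 and Dapa 8 they were 5.07 and 4.48 (exact permutation p = 0.0714 and 0.0563). Dapa minus Case was -0.97 points (exact permutation, adjusted p = 1).

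Around H2-D1 the sites outside the promoter were less regular. The promoter summit (35262950 to 35263082, median 35263022, the last base of the Y box printed above) was present in all 17 mice. A site 6.6 kb upstream (35255950 to 35256515, between genes) had no summit in Ctrl and one in 3 Case and 3 Dapa mice, at percentiles of 16.9 to 36.2. Reading the complete lists added Ctrl 5 at a complete-list percentile of 10.4. All db/db mice versus Ctrl had a share difference of 0.5 (Fisher's exact p = 0.102, adjusted p = 0.662). With sites formed from the complete lists, where the site also took in a Ctrl 2 summit at position -5749 from the H2-D1 start, that difference was 0.1 (Fisher's exact p = 1). In the equal-length lists, Case or Dapa alone versus Ctrl could not reach an unadjusted 0.05 with these numbers. A site 4.4 kb upstream (35258278 to 35258364) was present in 3 Ctrl, 2 Case and 5 Dapa mice (Dapa versus Case, Fisher's exact p = 0.242, adjusted p = 1), and one 7.8 kb upstream in 2, 2 and 1. In an intron near 35263756, 1 mouse of each group had a summit in the equal-length lists, whereas the complete lists held it in all 5 Ctrl mice, 3 Case mice and 1 Dapa mouse. Those 5 Ctrl summits stood at complete-list percentiles of 1.1 to 27.7, in the lower part of lists that were 37402 to 56659 summits long.

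**Figure D2:**
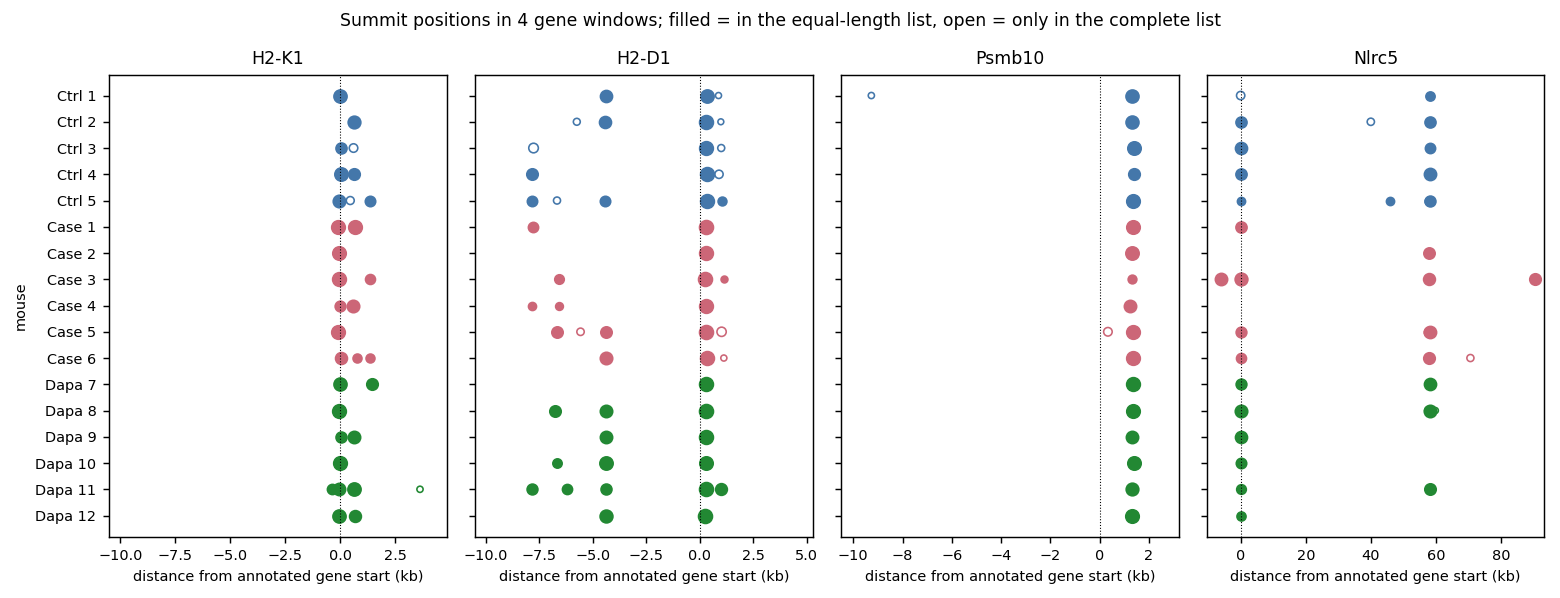
Positions of summits (horizontal axis, kb from the annotated gene start, upstream negative) in the windows of H2-K1, H2-D1, Psmb10 and Nlrc5 in each of the 17 mice (vertical axis). Filled points are in the equal-length lists, open points only in the complete lists, and point size grows with the complete-list percentile; the H2-D1 start and the Psmb10 internal site are filled in every mouse.

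B2m, the light chain shared by class I molecules (ENSMUSG00000060802.8, chr2:122147686-122153083, plus strand), had a single site at its start in all 17 mice (122147555 to 122148712), and its median position was 19 bases before the start. The Ctrl mice had percentiles of 87.1, 74.3, 27.3, 79.6 and 51.5. The Case mice ranged from 66.6 to 94.4 with a median of 82.8, and the Dapa mice from 58.8 to 94.7 with a median of 84.6. Ctrl 3 was again the lowest, and its best summit lay 470 bases after the start while the best summits of the other 16 mice lay at positions -131 to 15 from it. Ctrl averaged 63.9 ± 24.4, Case 80.6 ± 10.3 and Dapa 79.4 ± 16.6. All db/db mice differed from Ctrl by 16.1 points (exact permutation p = 0.0928, adjusted p = 0.497), or by 6.91 points without Ctrl 3. In the complete lists this difference was 8.8 points (exact permutation p = 0.185). Dapa minus Case was -1.21 points (exact permutation, adjusted p = 1).

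The peptide supply genes Tap1, Psmb9, Psmb8 and Tap2 lie side by side on chromosome 17, and their windows share summits. Tap1 (ENSMUSG00000037321.17, chr17:34187553-34197225, plus strand) and Psmb9 (ENSMUSG00000096727.3, chr17:34181987-34187764, minus strand) had the same best summit in every library, in their common promoter. It fell between 34187380 and 34187454 in 16 mice and at 34187736 in Dapa 10. Percentiles in Ctrl were 89.6, 81.1, 86.1, 80.6 and 74.9, those in Case 43.1 to 93.3 with a median of 85.2, and those in Dapa 65.2 to 88.6 with a median of 83.8. The groups overlapped widely, and the lowest value was that of Case 2. Case minus Ctrl was -2.17 points, Dapa minus Ctrl -1.69 and Dapa minus Case 0.473, with adjusted p of 1, 0.931 and 1. Without Case 2 the first difference turned to 5.28 points.

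Psmb8 (ENSMUSG00000024338.15, chr17:34197721-34201454, plus strand) had summits in its window in every Dapa mouse and in 2 of the 5 Ctrl mice in the equal-length lists. The other 3 Ctrl mice stood at 0, and these 2 had percentiles of 40.5 and 45.6. The Case mice ranged from 0 to 73.7 with a median of 26.0, and the Dapa mice from 26.2 to 76.6 with a median of 53.2. Group means were 17.2 ± 23.6, 30.3 ± 29.7 and 49.4 ± 19.3 for Ctrl, Case and Dapa, and Dapa minus Ctrl was 32.2 points (exact permutation p = 0.0433, adjusted p = 0.381). Over the mice that had a summit in the window it was 6.39 points (exact permutation p = 0.679), and with lists cut to the top 50% it was 14.2 (exact permutation p = 0.152). In the complete lists it was 35.9 points (exact permutation p = 0.0346, adjusted p = 0.436). Dapa 10 and Dapa 12 took their values from summits at -9985 and -9873 bases from the Psmb8 start, at Tap1. That Tap1 site had a summit in all 17 mice, but its best summit in each Ctrl mouse lay just outside the window, at -10341 to -10285. With the window begun 2 kb upstream the difference was 15.1 points (exact permutation p = 0.329, adjusted p = 0.719). At the Psmb8 start itself (34197618 to 34197717), which leads to the subunit that gives the immunoproteasome its chymotrypsin-like activity, summits were found in 2 Ctrl mice, 3 Case mice and 4 Dapa mice, or in 3, 3 and 4 with the complete lists. Dapa versus Ctrl at that site gave a Fisher's exact p of 0.567 (adjusted p = 0.824).

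Tap2 (ENSMUSG00000024339.12, chr17:34203527-34216321, plus strand) was weakly open. Its window percentiles were 37.8, 0, 18.8, 40.5 and 45.6 in Ctrl, 0 to 73.7 in Case (median 32.3) and 0 to 59.5 in Dapa (median 40.4), and many of these came from the Psmb8 start inside the window. At an annotated Tap2 start (34204447 to 34204573) summits were found in 3 Ctrl mice, 2 Case mice and 1 Dapa mouse, or in 4, 2 and 1 with the complete lists. This order is opposite to that at the Psmb8 start, and neither site passed the test (all db/db mice versus Ctrl, Fisher's exact p = 0.28 at Tap2 and 0.62 at Psmb8, adjusted p = 0.762 and 0.881). Within 1 kb of Tap2 starts, Ctrl averaged 13.6 ± 15.7, Case 15.3 ± 24.2 and Dapa 4.65 ± 11.4.

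Tapbp (ENSMUSG00000024308.15, chr17:33915899-33929292, plus strand) had high window values. In 16 mice the best summit lay 6.5 kb upstream, at the start of the neighbour BC051226, and in Ctrl 5 it lay at the outer Tapbp start (33915864 to 33916100), beside which Zbtb22 also starts. Both sites were present in all 17 mice, and within 1 kb of Tapbp starts the mean percentile was 87.4 ± 6.74 (SD). The window percentiles were 91.6 to 96.8 in Ctrl, 86.5 to 97.4 in Case and 91.0 to 98.0 in Dapa. At the inner Tapbp start (33919454 to 33919600), which overlaps the RefSeq Tapbp promoter, all 6 Case mice had a summit, beside 5 Dapa mice and 2 Ctrl mice. Ctrl 1 and Ctrl 2 stood there at 13.1 and 9.75. The Case mice stood at 6.84 to 68.5 and the 5 Dapa mice at 30.8 to 91.3. The complete lists added Ctrl 3 at a complete-list percentile of 36.7. All db/db mice versus Ctrl gave a Fisher's exact p of 0.0525 (adjusted p = 0.468), the smallest among the sites of the members at the extension of 250 bases used for all sites. The share difference there was 0.517, and it was 0.317 in the complete lists and likewise with summits extended by 500 bases (Fisher's exact p = 0.191 in both) and 0.667 with lists cut to the top 50% (Fisher's exact p = 0.0294, adjusted p = 0.449). A site in the intron downstream was present in 2 Ctrl, 2 Case and 0 Dapa mice.

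**Figure D3:**
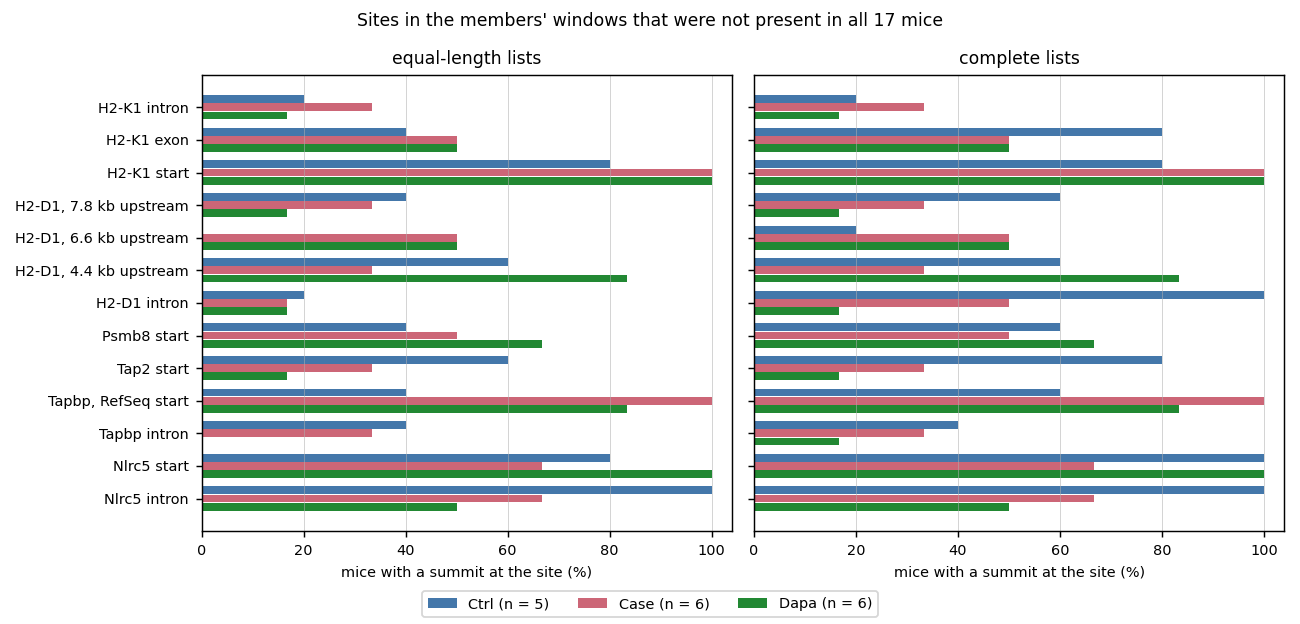
Share of mice (horizontal axis, percent of Ctrl n = 5, Case n = 6, Dapa n = 6) with a summit at each of the 13 sites of the members that were not present in all 17 mice, in the equal-length lists (left) and the complete lists (right). The inner Tapbp start is at 2 Ctrl mice and all 6 Case mice, and the H2-D1 intron changes from 1 mouse of each group on the left to 5, 3 and 1 mice on the right.

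Psmb10 (ENSMUSG00000031897.9, chr8:105935735-105938444, minus strand), the third immunoproteasome subunit, was open within the gene and not at its outermost start. All 17 mice had a summit between 105937042 and 105937194, in an intron 1250 to 1402 bases inside the gene and beside an internal annotated start, with a median position 44 bases before that start. The 153 bases from the lowest to the highest summit are given because no RefSeq promoter entry covers them (chr8:105937042-105937194, plus strand), and they hold 1 match, to the X2 box, in capitals.
Psmb10: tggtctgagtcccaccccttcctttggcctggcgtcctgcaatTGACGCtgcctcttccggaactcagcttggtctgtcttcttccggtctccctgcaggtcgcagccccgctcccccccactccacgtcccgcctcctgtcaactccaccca
The only other summit near the outer start was that of Case 5, 341 bases inside the gene, in the complete list. Percentiles at the internal site were 77.9, 68.0, 85.0, 45.5 and 90.5 in Ctrl, 26.3 to 92.5 in Case with a median of 88.2, and 69.0 to 92.5 in Dapa with a median of 88.6. The medians lay above most Ctrl mice, but the groups overlapped and Case 3 was the lowest of all. Case minus Ctrl was 2.9 points (76.3 ± 25.4 versus 73.4 ± 17.7, exact permutation, adjusted p = 0.967), and it turned to -4.53 in the complete lists, to -4.08 without Ctrl 4 and to -0.344 without Case 6. The median of Case minus Ctrl over all genes in the complete lists was -3.75. Dapa minus Case was 6.81 points (exact permutation, adjusted p = 1), which turned to -3.19 without Case 3.

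Nlrc5, the class I transactivator (ENSMUSG00000074151.13, chr8:94434356-94527272, plus strand), had 2 recurrent sites. The start (94434216 to 94434403) was open in all 6 Dapa mice, 4 Ctrl mice and 4 Case mice, the complete lists adding Ctrl 1. The window percentiles were 1.94, 14.6, 51.9, 59.9 and 40.1 in Ctrl, 0 to 79.5 in Case with a median of 50.9, and 10.3 to 66.4 in Dapa with a median of 47.5. The Ctrl mice were as widely spread as the others, and Case 4 had no summit in the window. Case minus Ctrl was 12.0 points (45.7 ± 26.5 versus 33.7 ± 24.7, exact permutation p = 0.47, adjusted p = 0.794), and with each mouse left out in turn it ran from 4.02 points without Ctrl 1 to 21.1 without Case 4. Dapa minus Case was -0.22 points (exact permutation, adjusted p = 1). In the complete lists both turned, to -1.71 and 4.2 points, beside medians of -3.75 and 1.5 over all genes.

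The other Nlrc5 site lay in introns about 58 kb from the start (94492163 to 94492673) and was present in all 5 Ctrl mice, in 4 Case mice and in 3 Dapa mice. All db/db mice versus Ctrl gave a Fisher's exact p of 0.245 (adjusted p = 0.762). With lists cut to the top 50% of their length the direction was opposite, the share of mice being higher in Case than Ctrl by 0.467 (Fisher's exact p = 0.242, adjusted p = 0.593). Its summits formed a lower group and an upper group whose medians were 409 bases apart, with a coding exon of 45 bases (94492331 to 94492375) between them. At the lower position 4 Case mice and 1 Ctrl mouse had a summit, the complete lists adding 1 Dapa mouse. At the upper position all 5 Ctrl mice had one, with 3 Dapa and 2 Case mice, in either kind of list. This split was made after the values were seen. With summits extended by 100 bases on each side the upper position stood as a site of its own, and the share of mice there was -0.667 in Case minus Ctrl (Fisher's exact p = 0.0606, adjusted p = 0.362) and -0.583 in all db/db mice minus Ctrl (Fisher's exact p = 0.0441, adjusted p = 0.493). The spans of both groups are printed (chr8:94492163-94492214 and chr8:94492565-94492673, plus strand) so that the positions can be found. The upper span holds 1 match, to the X2 box on the minus strand, and the lower span 0.
Nlrc5 lower: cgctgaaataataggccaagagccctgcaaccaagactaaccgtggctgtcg
Nlrc5 upper: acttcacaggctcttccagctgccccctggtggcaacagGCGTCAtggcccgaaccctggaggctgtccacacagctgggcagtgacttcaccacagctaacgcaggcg

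Over the 10 members, no comparison gave a gene that passed the adjusted threshold of 0.05. The background was the same: by rank percentile 0% of 26015 genes passed for Case versus Ctrl, 0% of 27002 for Dapa versus Case, 0% of 25499 for Dapa versus Ctrl and 0% of 28501 for all db/db mice versus Ctrl, with smallest adjusted p of 0.236, 1, 0.25 and 0.0622. Presence of a summit in the window (Fisher's exact test, 2943 to 10249 genes tested) also gave 0% in each, with 336, 32, 232 and 749 genes at an unadjusted p under 0.05, and so did presence by site (7224 to 27403 regions), with 1162, 85, 860 and 2545. Among the members, presence in the window could be tested only for Psmb8 in Case versus Ctrl and for Tap2 and Psmb8 in all db/db mice versus Ctrl. The other members could not reach an unadjusted 0.05 by presence, so it says nothing about them. The smallest p the permutation test allows was 0.00216 for 5 or 6 mice against 6 and 1.62e-04 for 5 against 12.

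Without adjustment few members were called. H2-D1 was the 1 member higher in Case than Ctrl at an unadjusted p under 0.05, against 4.1% of all genes tested, and no member was lower, against 7.96%. In Dapa versus Ctrl, Psmb8 was higher (background 4.76%) and none lower (7.64%). The Psmb8 values of Dapa 10 and Dapa 12 came from Tap1 summits just inside the edge of the window. In all db/db mice versus Ctrl, H2-K1 and H2-D1 were higher (4.15%) and none lower (8.08%). Dapa versus Case called 0 members against 1.96% higher and 1.46% lower. No member had groups that did not overlap, while the shares of all genes without overlap were 0.6% higher and 1.53% lower for Case versus Ctrl, 0.104% and 0.0556% for Dapa versus Case, 0.659% and 1.51% for Dapa versus Ctrl, and 0.105% and 0.446% for all db/db mice versus Ctrl. The members and the lists were few, and nothing particular to them follows from these shares.

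**Figure D4:**
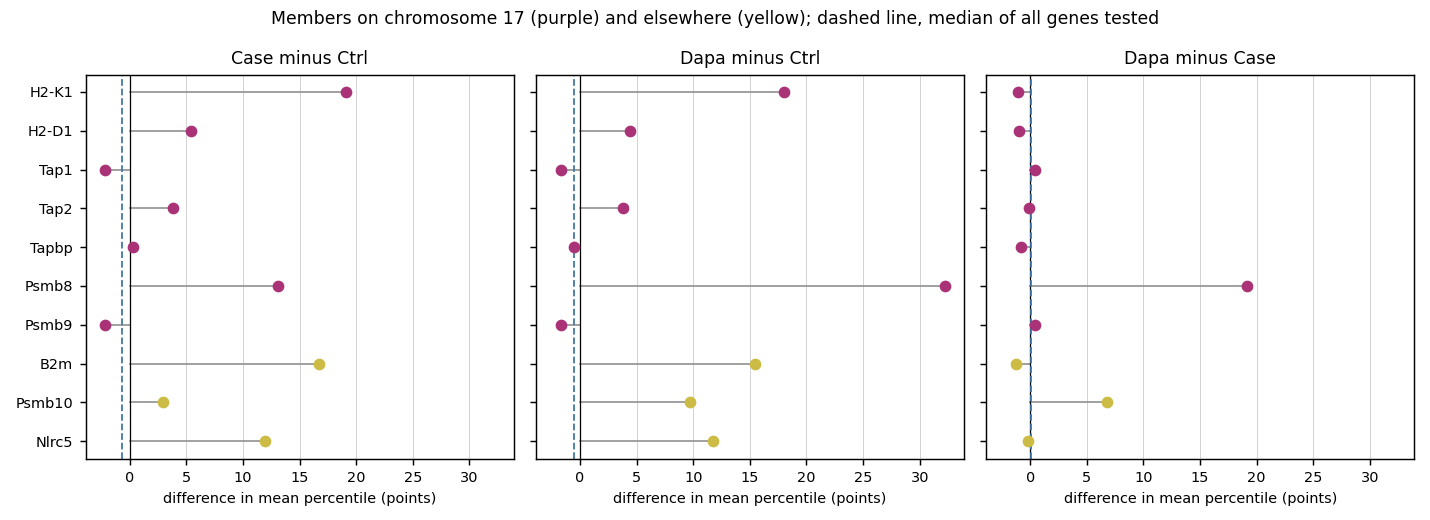
Difference between group means of the best-summit percentile (horizontal axis, percentile points) for each member in 3 comparisons, with the chromosome 17 members in purple, the others in yellow and the median over all genes tested as a dashed line. In both comparisons with Ctrl most points lie to the right of 0, H2-K1 at 19.1 and 18.0, whereas in Dapa minus Case all but Psmb8 and Psmb10 lie between -1.21 and 0.473.

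On chromosome 17 the median difference of the 7 members was 3.84 points for Case minus Ctrl (5 above 0, 2 below). The median was -0.711 over all genes tested and -0.318 over those on chromosome 17. For Dapa minus Ctrl the members' median was 3.78 points (4 above, 3 below), beside -0.498 and -0.76. The 3 members elsewhere were above 0 in both comparisons, with medians of 12.0 and 11.7 points. The 7 members on chromosome 17 are not separate values. Tap1 and Psmb9 had the same best summit in every library, and Tap2 and Psmb8 shared the summit at the Psmb8 start in several. With lists cut to the top 50% the chromosome 17 medians were 9.9 (5 above, 2 below) and 5.32 points (4 above, 3 below). The other 3 members then had medians of 11.9 and 17.6 points. With 10 kb on each side of the gene the chromosome 17 medians were 0.255 (4 above, 3 below) and 3.63 points, and with windows from 2 kb upstream 1.65 and 3.32. Without Case 3 and Dapa 8 they were 2.77 and -0.0646 points, the second with 3 above 0 and 4 below. In the complete lists they were -1.01 and -0.966 points (3 above 0 and 4 below in each), and the other 3 members had medians of -1.71 (1 above, 2 below) and 4.28 (3 above). Over all genes the complete lists gave -3.75 and -1.91 points. Both comparisons use the same 5 Ctrl mice, and Ctrl 3 set a large part of the H2-K1 and B2m values. For Dapa minus Case the medians were -0.064 on chromosome 17 and -0.22 elsewhere, beside 0.0337 over all genes. In the complete lists they were 2.53 (6 above, 1 below) and 4.2 (2 above, 1 below), beside 1.5 over all genes, and with lists cut to the top 50% they were -1.56 (1 above, 6 below) and -2.43 (1 above, 2 below). In the equal-length lists the Dapa minus Case differences of single members ranged from -1.09 to 19.1 points on chromosome 17, the highest at Psmb8, and from -1.21 to 6.81 elsewhere.

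The other genes of the pathway were a list of 41, with 12 on chromosome 17 and 29 elsewhere. Of the 12, 10 could be tested. Their median difference was 8.05 points for Case minus Ctrl (8 above 0, 2 below) and 8.41 for Dapa minus Ctrl (7 above, 3 below). For the 29 elsewhere these medians were -1.35 (12 above, 17 below) and -2.3 points (11 above, 18 below). By unadjusted exact permutation p under 0.05, H2-M3, a class I-b heavy chain that presents formylated peptides, was lower in Case than Ctrl (-40.4 points, 34.0 ± 31.0 versus 74.5 ± 19.9, adjusted p = 0.341), and H2-Q6, a Qa-region heavy chain, was higher in Dapa than Ctrl (22.1 points, 79.5 ± 9.48 versus 57.4 ± 21.2, adjusted p = 0.314). H2-Q2 had no summit in any equal-length list and H2-M2 in 1 of 17. Of the 29 elsewhere, Psme2, a proteasome activator subunit, was higher in Case than Ctrl (3.04 points, exact permutation, adjusted p = 0.331). Rfxap, a subunit of the RFX complex that binds the X box, was lower in Dapa than Ctrl (-30.5 points, exact permutation, adjusted p = 0.358), as was Nfkb1, the NF-kB p50 precursor gene (-31.5 points, 6.8 ± 11.2 versus 38.3 ± 10.3, adjusted p = 0.25). Nfkb1 was the 1 gene of the list whose groups did not overlap, with 26.8 to 55.1 in Ctrl and 0 to 26.6 in Dapa, beside 1.51% of all genes tested that were lower in Dapa without overlap and 0.659% higher. In all db/db mice versus Ctrl, Irf1 and Irf2, which bind interferon-responsive elements, had differences of 28.5 and 10.2 points (exact permutation, adjusted p = 0.255 and 0.344), and H2-M3, Rfxap and Nfkb1 had -36.7, -26.3 and -24.5 points (adjusted p = 0.331, 0.404 and 0.346). In Dapa versus Case 0 of the 38 genes tested had an unadjusted p under 0.05. The shares of all genes at such a p were 4.1% higher and 7.96% lower for Case versus Ctrl, 4.76% and 7.64% for Dapa versus Ctrl, 4.15% and 8.08% for all db/db mice versus Ctrl, and 1.96% and 1.46% for Dapa versus Case.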

How the data were processed

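ATAC-seq summit lists of 17 mouse kidneys (Ctrl 5, Case 6, Dapa 6) were analysed. Per the study's methods and the submitters' processing notes, the authors used the ENCODE pipeline: Bowtie2 alignment to mm10, filters against duplicates and blacklisted regions, a strand-wise shift of reads, and MACS2 peak calls per library; handling of multi-mapped reads is not given in the sources used here. The deposited score is a −log10 p-value or q-value (which one is not stated), lowest just above 2.

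Each list was cut by score to the length of the shortest and ranked, ties in file order. GENCODE M21 gave the windows. Percentiles were compared by exact 2-sided permutation for genes with a summit in 2 or more libraries, and presence by Fisher's exact test where an unadjusted p under 0.05 was possible, for genes and for sites (summits extended by 250 bp and merged, in 2 or more libraries). Benjamini-Hochberg adjustment covered all features tested. Python 3.11.15 and scipy 1.17.1 were used, and the tests were checked on simulated data.

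The members and lists were chosen with earlier results of these data known. All members are named, and sites in all libraries, sites whose share of mice differs by 0.5 or more between groups and those with the smallest p of their window; further sites named were chosen after their values were seen. Other pathway genes are named where groups do not overlap or a count is 5 or fewer. Alternatives varied list length, window, filters, libraries with no summit, site extension, each mouse left out and pairing by number.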

Additional observations from a re-analysis of the deposited data

Results flagged for a closer look

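Dixon's test at the 95% level was applied to 30 sets of percentiles (10 members in 3 groups). It would give about 1.5 by chance only for separate, normally distributed sets. Percentiles have an upper limit, and Tap1 and Psmb9 repeat the same values, so no excess over chance can be read from the count. In 6 sets a mouse lay apart from the rest of its group, and each was the lowest of its group. These were Ctrl 1 at H2-D1 (81.6), Dapa 10 at H2-D1 (89.4), Case 2 at Tap1 (43.1) and at Psmb9 (43.1), which are the same summit, Case 3 at Tapbp (86.5) and Case 3 at Psmb10 (26.3).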

How the results depend on the processing

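Where it could be tested, no member and no site of a member passed an adjusted threshold under any alternative run here (the replicate block below could give no pass), and 28 of 59 member and site values never changed sign. All genes called in all db/db mice versus Ctrl went from 0 to 74 with lists cut to the top 50% and to 117 with 10 kb on each side, no member among them. The members' values that changed sign follow, as differences in points unless given as a share of mice; none tested there had an unadjusted exact p under 0.05, and the cause was not tested. With complete lists, Case minus Ctrl was -13.8 at Tap2, -1.01 at Tapbp, -4.53 at Psmb10 and -1.71 at Nlrc5, Dapa minus Case was 0.36 at H2-K1, 5.57 at Tap2, 0.0449 at Tapbp and 4.2 at Nlrc5, Dapa minus Ctrl was -8.26 at Tap2 and all db/db minus Ctrl was -11.0 at Tap2 and -0.125 at Psmb10. Medians over all genes in the complete lists were -3.75 for Case minus Ctrl and 1.5 for Dapa minus Case. They were -1.91 for Dapa minus Ctrl and -2.36 for all db/db minus Ctrl. With lists cut to the top 50%, Case minus Ctrl in share of mice was 0.467 at the Nlrc5 intron, Dapa minus Case was -1.36 at Tap1 and -1.36 at Psmb9, Dapa minus Ctrl in share of mice was 0.133 at the Nlrc5 intron, all db/db minus Ctrl in share of mice was 0.417 at Tap2, all db/db minus Ctrl in share of mice was 0.217 at the H2-D1 site 4.4 kb upstream and all db/db minus Ctrl in share of mice was 0.3 at the Nlrc5 intron. With windows from 2 kb upstream, and likewise within 1 kb of starts, Dapa minus Case was 2.16 at Tapbp, Dapa minus Ctrl was -8.98 at Tap2 and 3.32 at Tapbp and all db/db minus Ctrl was -3.66 at Tap2 and 2.23 at Tapbp. With 10 kb on each side, Case minus Ctrl was -0.914 at Tap2, Case minus Ctrl in share of mice was -0.133 at Psmb8 and Dapa minus Case was 4.54 at Tap2. Within 1 kb of starts alone, Dapa minus Case was 8.69 at Nlrc5. With Case 3 and Dapa 8 left out together (chosen after seeing the data), Dapa minus Case was -4.12 at Psmb10 and 3.51 at Nlrc5, Dapa minus Ctrl was -1.66 at Tap2 and all db/db minus Ctrl was 0.916 at Tapbp. With sites extended by 100 bp, Dapa minus Case in share of mice was 0.167 at the Nlrc5 intron. Leaving out each mouse in turn, the differences that changed sign had these ranges. Case minus Ctrl ran from -4.08 to 12.9 at Psmb10, -4.76 to 5.28 at Tap1 (and Psmb9), -4.42 to 10.3 at Tap2, -0.465 to 1.9 at Tapbp. Dapa minus Case ran from -4.27 to 2.91 at B2m, -1.5 to 0.505 at H2-D1, -6.21 to 1.43 at H2-K1, -9.35 to 6.8 at Nlrc5, -3.19 to 10.1 at Psmb10, -6.97 to 3.59 at Tap1 (and Psmb9), -6.54 to 8.2 at Tap2. Dapa minus Ctrl ran from -3.58 to 1.42 at Tap1 (and Psmb9), -3.36 to 10.2 at Tap2, -1.33 to 0.0754 at Tapbp. All db/db minus Ctrl ran from -0.67 to 11.2 at Psmb10, -3.82 to 1.48 at Tap1 (and Psmb9), -3.32 to 8.07 at Tap2, -0.855 to 0.577 at Tapbp. At the H2-D1 site 4.4 kb upstream the share difference of all db/db mice and Ctrl ran from -0.167 to 0.0833. Same-numbered Ctrl and Case mice share only a number: correlations of their deviations were -0.0472 to 0.0424, and 1 of 5 was highest with its own number. With the replicate block the 5 pairs allow no 2-sided p under 0.0625, so no gene could pass: genes at an unadjusted p under 0.05 went from 3139 to 0, and H2-D1 had an exact permutation p of 0.25. Case minus Ctrl was -0.264 at Tapbp and -0.344 at Psmb10. Read depth is unknown and strain cannot be told apart from group, which limits what these lists can show.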
